A study of Rattus with 6 samples.

Results

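The genes described here encode the enzymes that oxidise and conjugate drugs, hormones and other foreign or fat-soluble compounds, as read in rat bone marrow mesenchymal stem cells (BMSC), the stromal cells of marrow that can form bone, fat and cartilage. Members were chosen by a rule on gene symbols, set with earlier results of these data known. It took cytochromes P450 (Cyp, without the sterol-synthesis gene Cyp51), UDP-glucuronosyltransferases (Ugt), sulfotransferases (Sult) and cytosolic glutathione S-transferases (Gst, classes alpha, mu, pi, theta, omega and zeta). It also took aldehyde dehydrogenases (Aldh), aldehyde oxidases (Aox), flavin monooxygenases (Fmo) and epoxide hydrolases (Ephx). The rule found 146 of the 30211 genes in the deposited count table. Cells labelled wild type were cultured for 4 days with 100 uM dexamethasone, a synthetic glucocorticoid, in 3 libraries, and without it in 3 control libraries. Whether the controls received vehicle, and the strain, age and sex of the rats, are not stated in the labels. The labels' treatment tag reads DEX for all 6 samples, so groups follow the sample titles and descriptions. No label ties the replicates to separate cultures or animals, and p-values therefore measure only the spread between these libraries, which may be technical.

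Oxidising enzymes (Cyp, Fmo, Aox, Aldh) and epoxide hydrolases add or expose a reactive group on a substrate. Transferases (Gst, Ugt, Sult) then attach glutathione, glucuronic acid or sulfate, which makes the product more soluble and easier to export. The families are best known from liver, but several members act on the body's own molecules in many tissues, among them oestrogens, vitamin D, retinoic acid, bile acid precursors, amino acid breakdown products and folates.

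Libraries held 34835072 to 41676315 counts, and a count of 0 allows up to 0.17 CPM (counts relative to library size, with TMM factors that align the libraries on the bulk of their genes) in the least deep of them. Fkbp5, an established target of the glucocorticoid receptor, had 1290, 1390 and 1430 CPM in the dexamethasone libraries, against 69, 71 and 69.3 CPM in the controls. Libraries of the same group correlated at 0.994 or more on log2 CPM and libraries of different groups at 0.936 to 0.937. Of 11 tested stromal markers, 4 rose, 6 fell and 1 did not pass (90.9% called, where 64.0% of all tested genes were called). Pdgfra and Col1a1 had 965 and 665 CPM with dexamethasone against 598 and 1138 CPM in the controls. The largest falls in that list were those of Prrx1, a mesenchymal transcription factor gene, at 75.6 CPM with dexamethasone against 727 CPM in the controls (log2 -3.27), and Pdgfrb, at 137 CPM with dexamethasone against 616 CPM in the controls (log2 -2.17). All 10 hepatocyte markers together summed to 0.51 to 0.711 CPM in the dexamethasone libraries and 0.625 to 0.959 CPM in the controls, with Ttr at 0 counts throughout. Macrophage markers were also low: the 12 genes summed to 8.85 to 9.73 CPM with dexamethasone against 13 to 13.9 CPM in the controls, while Adgre1, Cd163 and Tyrobp had no count. Most of that sum was Cd14, which did not pass (log2 0.07). Of the 7 tested macrophage markers 57.1% were called, where 64.0% of all tested genes were called and 31.7% fell. All 4 called markers fell and none rose. These were Cd74 (0.139 CPM with dexamethasone against 1.74 CPM in the controls, log2 -3.57), Cd53 (0.127 against 1.4 CPM, log2 -3.43), Lyz2 (log2 -1.76) and Cd68 (log2 -1.25). Endothelial markers summed to at most 2.1 CPM and erythroid markers to at most 0.836 CPM in any library, with Emcn, Cldn5 and Hbb at 0. Adipocyte markers summed to 7.68 to 11.1 CPM with dexamethasone against 4.43 to 5.07 CPM in the controls, with Lep at 0. Of the 3 tested, 66.7% were called, close to the 64.0% of all tested genes. The transcription factor gene Cebpa rose (7.75 CPM with dexamethasone and 1.73 CPM in the controls). Lpl fell (0.268 CPM with dexamethasone and 1.62 CPM in the controls, log2 -2.57) and Pparg did not pass (log2 0.11). The part of other cell types in the results below was not tested. In bulk samples, fewer cells of a type and less RNA per cell cannot be told apart.

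Most of the catalogue was silent or nearly so. Of the 146 members, 30 had no count in any library, 53 had counts too low to pass the filter on low values, and 63 were tested. This is not particular to the members: of all 30211 genes in the table, 16100 were not tested. Of the tested members, 31 rose, 16 fell and 16 did not pass (edgeR's quasi-likelihood test, Benjamini-Hochberg adjusted p below 0.05 over all 14111 tested genes). The 47 calls are 74.6% of the tested members, where 64.0% of all tested genes were called. Rises were 49.2% and falls 25.4% of tested members, against 32.3% and 31.7% of all tested genes. Called changes of at least 2-fold made up 46.0% of tested members, against 15.6% of all tested genes. They were 20 rises and 9 falls, where 8.65% of all tested genes rose and 7.0% fell by as much. For 48 tested members (76.2%) every dexamethasone value lay on the same side of every control value, against 66.9% of all tested genes. The median log2 fold change, dexamethasone over control, was 0.37 over tested members, also with genes at 0 in the controls set to their lower bound, and -0.00019 over all tested genes. Among the tested members were 4 that reached the filter's level in no library of one group (Aox3, Cyp24a1 and Gstm6, high with dexamethasone, and Cyp2e1, high in the controls). These could pass the filter only by differing, so the shares describe the genes tested and not the whole catalogue.

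**Figure D1:**
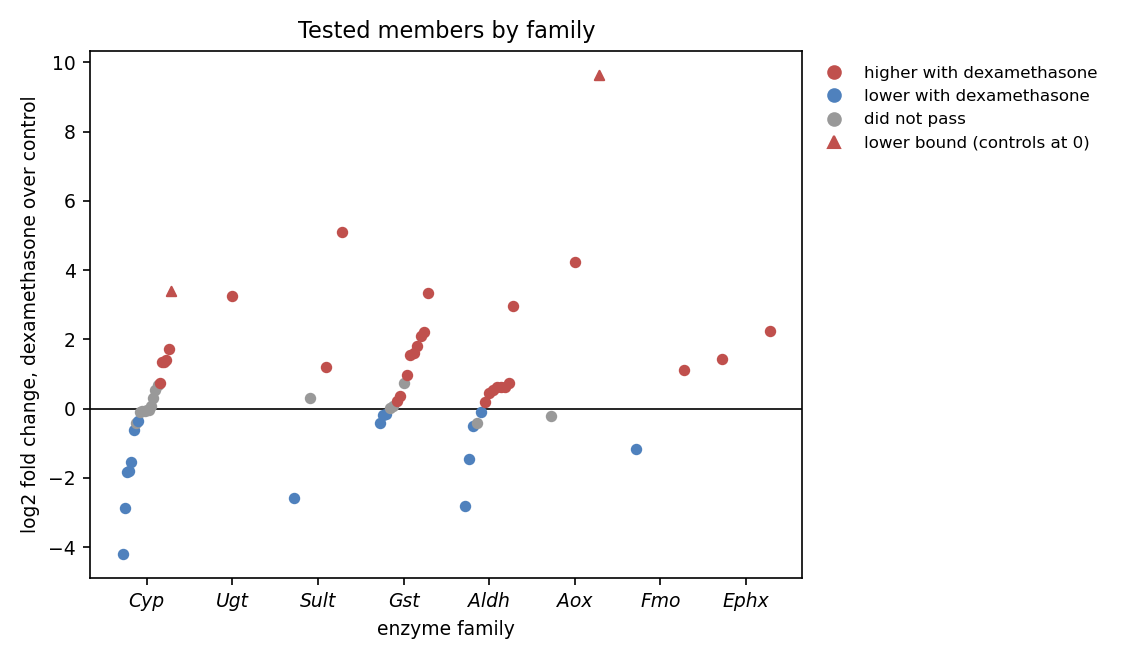
Each point is 1 of the 63 tested members, placed by enzyme family on the x axis and by log2 fold change, dexamethasone over control, on the y axis, with members that rose in red, those that fell in blue and those that did not pass in grey. Triangles are lower bounds for Aox3 and Cyp24a1, whose controls had no count. Aox1, Sult1a1 and Ugt1a6 stand far above 0, Cyp19a1, Cyp2e1 and Aldh1l2 far below, and the Cyp family spreads to both sides. Aox3, Cyp24a1, Gstm6 and Cyp2e1 could pass the filter on low counts only by differing.

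Aldehyde oxidases had the widest change. These molybdenum enzymes oxidise aldehydes and nitrogen-containing rings, and their 4 genes lie side by side on chromosome 9, between 64929721 and 65265149 in the table's own coordinates (a rat build that the sources used here do not name). Aox1 (64929721 to 65007870) had 528, 522 and 522 CPM in the dexamethasone libraries, against 29.7, 27.1 and 27.8 CPM in the controls. The groups were far apart and each was tight: the gene rose 18.6-fold (log2 4.22 ± 0.039 SE, edgeR adjusted p = 1.4e-51). Its neighbour Aox3 (65013862 to 65099433) had 39.9, 39.6 and 41.9 CPM with dexamethasone and no count in any control, at least 796-fold higher when the controls together are set at a floor of 6 counts (edgeR adjusted p = 7.0e-39). Of its 6589 exon bases, 168 are shared with AABR07067810.2, a gene with 301 counts with dexamethasone and 2 without, so a small part of the reads may belong to either. The remaining genes of the cluster were not called. Aox4, next to Aox3, had 1 count in each group. It shares 1918 of its 4993 exon bases with AABR07067810.2 on the same strand. Reads from that stretch may be missing from its count, so its level and change are uncertain. Aox2, at the far end, had 1.33, 1.19 and 1.70 CPM with dexamethasone against 1.84, 1.52 and 1.52 CPM in the controls, values that overlap (log2 -0.21, edgeR adjusted p = 0.44). Mocos, the enzyme that fits the molybdenum cofactor of aldehyde oxidases with its sulfur, was in a list of other conjugating and reducing enzymes and rose by 2.06 on the log2 scale, at 1 CPM with dexamethasone against 0.237 CPM in the controls.

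**Figure D2:**
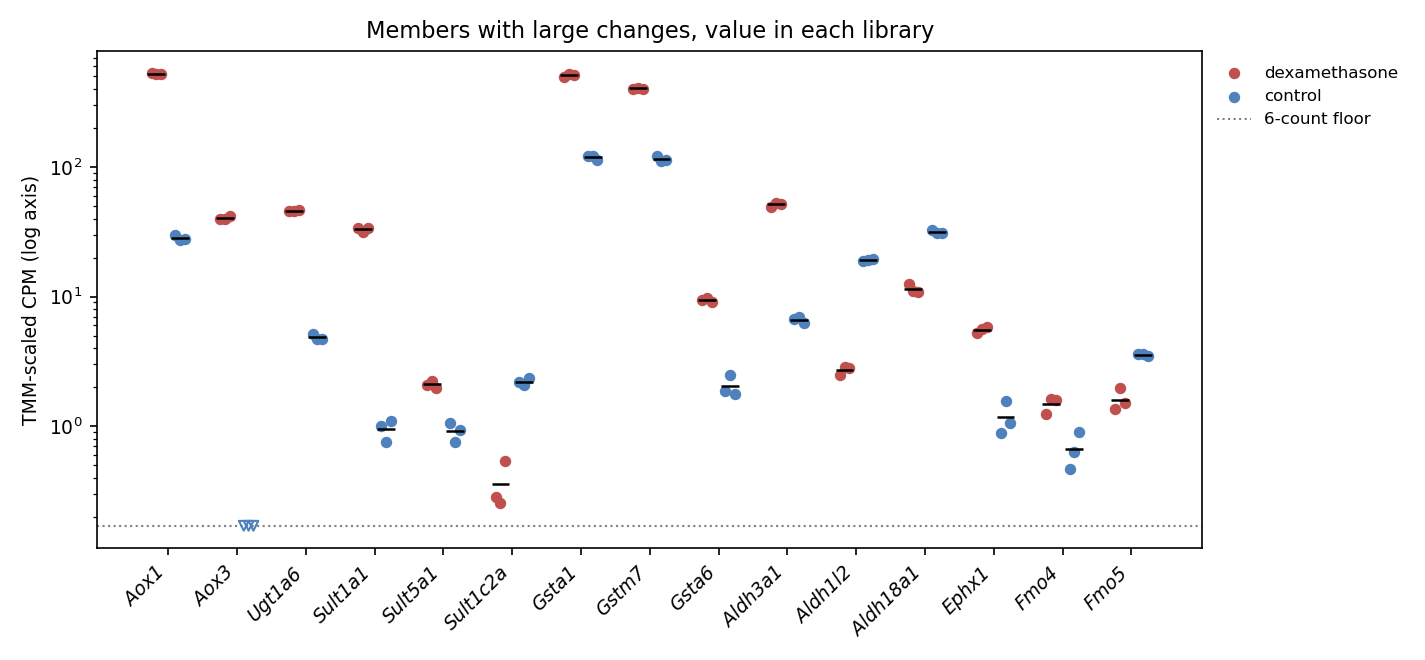
TMM-scaled CPM (y axis, log scale) in each dexamethasone (red, left) and control (blue, right) library for 15 members outside the Cyp family, with bars at the group means. Open triangles on the dotted line, the 6-count floor of the least deep library, mark controls with no count. The 15 were picked from called members for their large changes, so groups that do not overlap follow largely from that choice. Of all tested genes, 66.9% had groups that do not overlap. Libraries of a group lie close together, with Aox1 at 522 to 528 CPM with dexamethasone and 27.1 to 29.7 CPM without.

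Aldehyde dehydrogenases, which turn aldehydes into acids, moved mostly by small steps. Of 18 members 13 were tested, of which 8 rose, 4 fell and 1 (Aldh8a1) did not pass, 61.5% higher and 30.8% lower against 32.3% and 31.7% of all tested genes. At least 2-fold changes numbered 1 up and 2 down. The rise was Aldh3a1, an enzyme for aromatic and lipid-derived aldehydes that dioxin-like compounds are known to induce. It had 49.4, 53.1 and 51.8 CPM with dexamethasone, against 6.72, 6.89 and 6.25 CPM in the controls, 7.76-fold higher (log2 2.96 ± 0.052 SE, edgeR adjusted p = 1.5e-35). Aldh3a2, a fatty aldehyde dehydrogenase whose gene lies beside it within 56 kb on chromosome 10, rose by 0.53 on the log2 scale. Both falls were in enzymes of biosynthesis and folate rather than of foreign compounds. Aldh1l2, the mitochondrial enzyme that oxidises formyl-tetrahydrofolate, had 2.46, 2.86 and 2.81 CPM with dexamethasone, against 18.7, 19.2 and 19.4 CPM in the controls, 7.06-fold lower (log2 -2.82 ± 0.069 SE, edgeR adjusted p = 8.1e-28). Its cytosolic counterpart Aldh1l1 had 2.65, 2.41 and 2.56 CPM with dexamethasone against 1.43, 1.27 and 1.85 CPM in the controls, and rose (log2 0.75 ± 0.16 SE, edgeR adjusted p = 8.6e-04). Thus the mitochondrial and cytosolic forms went in opposite directions, with no overlap of groups in either. Aldh18a1, which makes the proline precursor from glutamate, had 12.5, 11.1 and 10.9 CPM with dexamethasone, against 32.4, 30.9 and 30.8 CPM in the controls, and fell by 1.45 on the log2 scale (SE 0.068, edgeR adjusted p = 4.7e-23).

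The abundant aldehyde dehydrogenases of amino acid and amine breakdown changed less. Aldh9a1, which oxidises aminoaldehydes on the way to carnitine, was the highest of the family per exon length. It had 292, 298 and 294 CPM with dexamethasone against 325, 316 and 308 CPM in the controls (log2 -0.10 ± 0.023 SE, edgeR adjusted p = 0.0016), a fall as small as any called in the family. Aldh7a1 of lysine breakdown, Aldh6a1 of valine breakdown, Aldh5a1 of GABA breakdown and Aldh2, the mitochondrial acetaldehyde dehydrogenase, rose by 0.45, 0.63, 0.64 and 0.64 on the log2 scale. Aldh16a1 rose by 0.19 and Aldh3b1 fell by 0.50. The call of Aldh16a1 was lost without control replicate 2 (log2 0.16, edgeR adjusted p = 0.06). Aldh3b1 shares 104 exon bases with Unc93b1 and Aldh6a1 shares 99 with Bbof1, each on the opposite strand. The sources used here do not say whether counting used strand. The retinaldehyde dehydrogenases were near silent: Aldh1a2 had no count, Aldh1a1 had 6 counts with dexamethasone and 2 without, and Aldh1a3 had 19 with dexamethasone and 30 without.

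Cytochromes P450 moved both ways. These haem enzymes insert oxygen into foreign compounds, steroids, fatty acids and vitamins. Of 71 members 23 were tested, of which 6 rose, 7 fell and 10 did not pass, 56.5% called against the 64.0% of all tested genes. The family's median log2 fold change was -0.05. Cyp1b1 (chromosome 6, 2307808 to 2316722), which acts on polycyclic hydrocarbons and oestradiol, dominated its level. It had 259, 263 and 253 CPM in the dexamethasone libraries, against 755, 761 and 738 CPM in the controls, with groups far apart. It fell 2.91-fold (log2 -1.54 ± 0.020 SE, edgeR adjusted p = 2.6e-39). Per exon length Cyp1b1 made up 60.5% ± 0.435 of the summed Cyp level with dexamethasone and 80.5% ± 0.366 in the controls (SD, n = 3 each). The summed level was 77.7 ± 1.21 RPKM (CPM per kilobase of exon) with dexamethasone against 170 ± 2.38 RPKM, and without Cyp1b1 it averaged 30.7 against 33.1 RPKM. The related Cyp1a1 and Cyp1a2, which are induced by dioxin-like compounds, had no count in any library.

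Cyp19a1, aromatase, which makes oestrogens from androgens, had the largest fall of the 63 tested members. It had 0.379, 0.199 and 0.320 CPM with dexamethasone, against 5.55, 5.09 and 6.20 CPM in the controls, 18.3-fold lower (log2 -4.19 ± 0.25 SE, edgeR adjusted p = 3.9e-21). Other enzymes of steroid hormone synthesis were low, with 0 counts for Cyp17a1, 12 counts with dexamethasone and 34 in the controls for Cyp21a1, and no count with dexamethasone and 4 in the controls for Cyp11a1. Cyp21a1 shares 289 of its 2296 exon bases with AABR07044388.2 on the opposite strand, a gene with 916 counts with dexamethasone and 722 in the controls. If counting ignored strand, reads in that stretch may belong to either. Cyp11b3 rose by 0.73 on the log2 scale, at 3.96, 3.37 and 2.98 CPM with dexamethasone against 1.66, 2.48 and 2.07 CPM in the controls. Its listed exons fall into 3 groups separated by up to 47 kb, and the rat reference table names 3 Cyp11b genes, so its counts may sum several copies.

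Genes of vitamin D handling were low and differed in direction. Cyp24a1, which inactivates the hormone form of vitamin D, had 0.521, 0.510 and 0.591 CPM with dexamethasone and no count in the controls, at least 10.6-fold higher against that floor (edgeR adjusted p = 2.9e-08). Cyp27b1, which makes that form, had 0.332, 0.284 and 0.345 CPM with dexamethasone against 1.37, 1.11 and 0.95 CPM in the controls, and fell 3.54-fold (log2 -1.82 ± 0.17 SE, edgeR adjusted p = 9.0e-06). Cyp2r1, which makes its precursor, had 1.33, 0.624 and 0.862 CPM with dexamethasone against 0.415, 0.329 and 0.325 CPM in the controls, and rose (log2 1.40 ± 0.31 SE, edgeR adjusted p = 7.0e-04). In each of these genes the groups did not overlap, with no library above 1.37 CPM. Cyp27a1, which acts on sterols and vitamin D, stood at 0.320 CPM with dexamethasone and 0.339 CPM in the controls (edgeR adjusted p = 0.90).

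Among P450s of sterols, fatty acids and retinoids, Cyp39a1, an oxysterol hydroxylase of bile acid synthesis, had 1.73, 2.07 and 2.02 CPM with dexamethasone against 0.674, 0.456 and 0.625 CPM in the controls, 3.30-fold higher (log2 1.72 ± 0.18 SE, edgeR adjusted p = 1.4e-07). Cyp4v3, whose human counterpart hydroxylates fatty acids, rose as well, at 11.1, 12.0 and 13.5 CPM with dexamethasone against 5.50, 4.16 and 4.82 CPM in the controls (log2 1.34 ± 0.14 SE). Cyp2u1, another fatty acid hydroxylase, fell by 0.62 on the log2 scale and Cyp4f17 by 0.36. Cyp4f17 shares 1116 of its 3043 exon bases with Cyp4f5, which did not pass (log2 -0.07), so reads in that stretch cannot be divided between them. Cyp26b1, which degrades retinoic acid, was called higher (log2 1.34 ± 0.54 SE, edgeR adjusted p = 0.016) with overlapping groups, at 0.237, 0.567 and 0.640 CPM with dexamethasone against 0.311, 0.101 and 0.150 CPM in the controls. That call was lost without dexamethasone replicate 2 or 3 (adjusted p = 0.063 and 0.12) and without control replicate 2 or 3 (adjusted p = 0.092 and 0.068). A second program, DESeq2, did not call Cyp26b1 either. Its sister gene Cyp26a1, which missed the filter, had 13 counts with dexamethasone and 1 without, and was not tested in the main fit. On read pairs its ratio was 7.0, with an exact 95% binomial interval of 0.899 to 315.

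The P450s best known for drug metabolism in liver (subfamilies Cyp2b, Cyp2c, Cyp2d, Cyp2e and Cyp3a) were low, with no member above 1.45 CPM in the mean of either group. The highest, Cyp3a62, averaged 1.08 CPM with dexamethasone and 1.45 CPM in the controls and did not pass (log2 -0.42). Cyp3a9 had 0.237, 0.397 and 0.320 CPM with dexamethasone against 1.09, 0.988 and 1.25 CPM in the controls, and fell 3.50-fold (log2 -1.81 ± 0.21 SE, edgeR adjusted p = 1.3e-05). Cyp2e1, the ethanol-oxidising P450, had 7 counts in all with dexamethasone and 53 in the controls, and fell by 2.86 on the log2 scale. It shares 53 exon bases with Syce1 on the opposite strand. Cyp2c6v1 (log2 -0.05) did not pass, and Cyp3a23/3a1, a known dexamethasone-induced gene of rat liver, had no count in any of the 6 libraries. Some members that missed the filter had counts mostly in one group. They are named for that and were not tested in the main fit. Cyp2c22 had 12 and Cyp2b15 had 9 counts with dexamethasone and both had none without. Cyp4f1 had 35 with dexamethasone and 6 without, Cyp2b1 had 2 with and 18 without, and Cyp4f39 had 0 with and 17 without. Dexamethasone replicate 1 had no count of Cyp2c22, and control replicate 3 had none of Cyp4f39. Cyp20a1, a P450 with no established substrate, was the second highest of the family per length with dexamethasone, at 12.2 RPKM against 13.1 RPKM in the controls, and did not pass (log2 -0.10, edgeR adjusted p = 0.14).

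**Figure D3:**
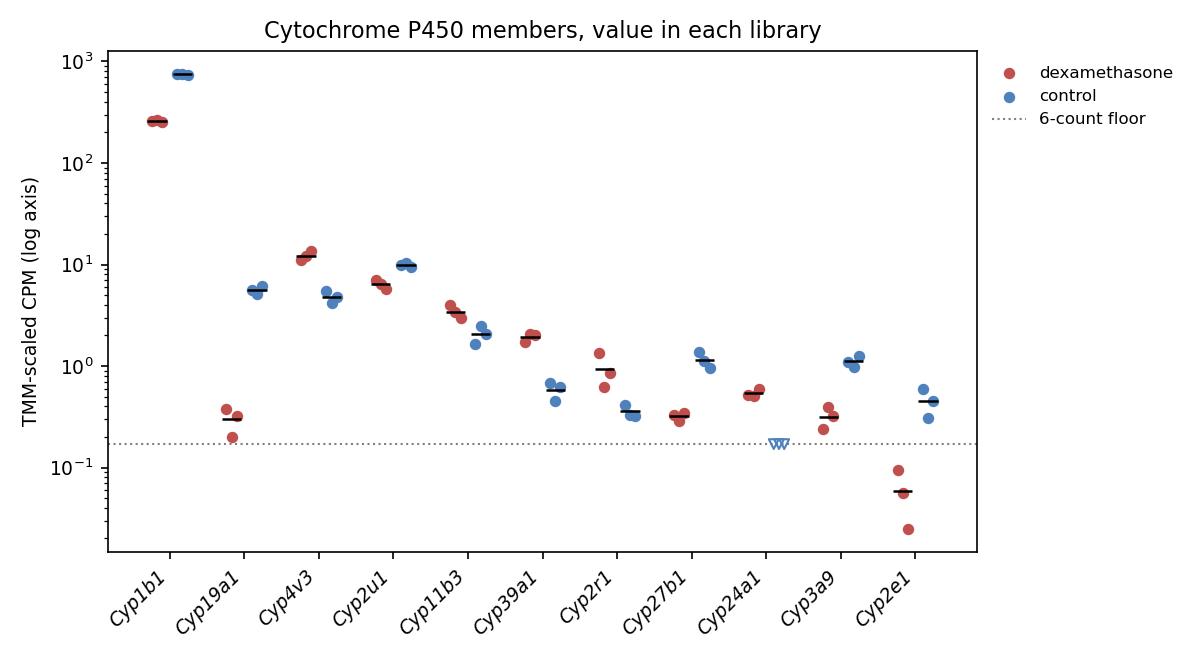
TMM-scaled CPM (y axis, log scale) in each dexamethasone (red, left) and control (blue, right) library for 11 called P450 genes, with bars at the group means. Open triangles on the dotted line, the 6-count floor of the least deep library, mark controls with no count. Cyp1b1 and Cyp19a1 are lower with dexamethasone in every library, Cyp4v3, Cyp39a1, Cyp2r1 and Cyp24a1 are higher, and most genes other than Cyp1b1 lie near or below 10 CPM.

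Flavin monooxygenases, which oxidise nitrogen and sulfur atoms, and epoxide hydrolases, which open reactive epoxides, were expressed at low levels. Fmo5 had 1.35, 1.96 and 1.5 CPM with dexamethasone against 3.60, 3.60 and 3.50 CPM in the controls, and fell (log2 -1.16 ± 0.15 SE, edgeR adjusted p = 1.8e-07). Fmo4 went the other way, at 1.23, 1.62 and 1.58 CPM with dexamethasone against 0.467, 0.633 and 0.900 CPM in the controls (log2 1.13 ± 0.28 SE, edgeR adjusted p = 4.3e-04). Of the other 6 Fmo members none was tested, and Fmo2 had 22 counts with dexamethasone and 23 without. Ephx1, the microsomal hydrolase of foreign epoxides, had 5.21, 5.59 and 5.81 CPM with dexamethasone against 0.882, 1.57 and 1.05 CPM in the controls, 4.73-fold higher with no overlap (log2 2.24 ± 0.24 SE, edgeR adjusted p = 2.9e-15). Ephx2, the soluble hydrolase of fatty acid epoxides, was called higher at 0.426, 0.510 and 0.394 CPM with dexamethasone against 0.363, 0.127 and 0 CPM in the controls (log2 1.43 ± 0.88 SE, edgeR adjusted p = 0.025). Its call was lost without dexamethasone replicate 2 (adjusted p = 0.081), without control replicate 2 or 3 (adjusted p = 0.086 and 0.17) and under DESeq2 (adjusted p = 0.1).

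Glutathione S-transferases were the most abundant of the conjugating families. Of 22 members 15 were tested, of which 9 rose, 3 fell and 3 did not pass, 80.0% called and 60.0% higher, where 64.0% of all tested genes were called, 32.3% higher and 31.7% lower. In the alpha class, Gsta1 (chromosome 9, 27368272 to 27452902) had 497, 523 and 516 CPM with dexamethasone, against 122, 121 and 114 CPM in the controls, 4.31-fold higher (log2 2.11 ± 0.037 SE, edgeR adjusted p = 1.9e-42). Gsta6, in the same cluster, had 9.48, 9.81 and 9.04 CPM with dexamethasone against 1.87, 2.48 and 1.77 CPM in the controls, 4.62-fold higher (log2 2.21 ± 0.15 SE). Gsta4, on chromosome 8, which clears the lipid peroxidation product hydroxynonenal, rose by only 0.23 on the log2 scale. Gsta2, Gsta3 and Gsta5 had 8 counts or fewer each over the 6 libraries.

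In the mu class, 4 of the 5 tested genes of a cluster of 7 within 154 kb on chromosome 2 rose and 1 fell. Of all tested genes, 32.3% rose and 31.7% fell. Gstm7 (210720704 to 210782856) had 403, 408 and 403 CPM with dexamethasone, against 121, 112 and 114 CPM in the controls, 3.49-fold higher (log2 1.80 ± 0.035 SE, edgeR adjusted p = 9.1e-40). Gstm5 had 9.03, 8.65 and 9.24 CPM with dexamethasone against 2.85, 3.02 and 2.95 CPM in the controls (log2 1.61 ± 0.036 SE), and Gstm1 rose by 0.96. Gstm6 was scarce, at 0.711, 0.709 and 0.961 CPM with dexamethasone against 0.0259, 0.0760 and 0.125 CPM in the controls (log2 3.33 ± 0.37 SE, edgeR adjusted p = 1.5e-07). It passed the filter through the dexamethasone libraries alone, so it could be tested only by differing. Gstm4 was the exception in the cluster, at 27.0 CPM with dexamethasone against 35.8 CPM in the controls, a fall of 0.41 on the log2 scale (edgeR adjusted p = 2.4e-08). Gstm3, listed on an unplaced scaffold, rose by 1.54. Gstm3l, in the chromosome 2 cluster, matched the same name in the rat reference table by synonym. It missed the filter, with 15 counts with dexamethasone and 3 without. Mu- and alpha-class genes are close copies, and how the authors counted reads that map to several genes is not stated, so the split between neighbours is uncertain. The listed exons of Gstm7 fall into 2 groups 52 kb apart and those of Gsta1 into 2 groups 67 kb apart, so each may sum more than 1 copy.

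Changes in the other classes were small or did not pass. Gstp1, the pi-class enzyme, had 34.5, 29.9 and 32.5 CPM with dexamethasone and 31.9, 31.6 and 31.9 CPM in the controls, values that overlap (log2 0.02 ± 0.059 SE, edgeR adjusted p = 0.72). The omega-class genes Gsto1 and Gsto2, which reduce dehydroascorbate and thiol adducts, fell by 0.18 and 0.14 on the log2 scale. They share 244 exon bases on the same strand. The call of Gsto2 (edgeR adjusted p = 0.048) was lost without any single library other than control replicate 2, with adjusted p of 0.079, 0.077 and 0.14 without dexamethasone replicates 1 to 3 and 0.081 and 0.19 without control replicates 1 and 3. Of the theta class, Gstt2 was called higher with overlapping groups (log2 0.37, edgeR adjusted p = 0.036). That call was lost without dexamethasone replicate 2 or 3 (adjusted p = 0.094 and 0.19) and without control replicate 2 or 3 (adjusted p = 0.07 and 0.16). DESeq2 called neither Gsto2 nor Gstt2. Gstt1 did not pass (log2 0.73, edgeR adjusted p = 0.053), but did without dexamethasone replicate 1 (adjusted p = 0.048) or control replicate 1 (adjusted p = 0.049). Gstz1, an enzyme of tyrosine breakdown, did not pass (log2 0.09).

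Glucuronidation rested on 1 gene name. Ugt1a6 (chromosome 9, 95161157 to 95302822) had 45.4, 45.5 and 46.4 CPM in the dexamethasone libraries, against 5.13, 4.71 and 4.67 CPM in the controls, 9.45-fold higher with no overlap (log2 3.24 ± 0.044 SE, edgeR adjusted p = 7.1e-36). Enzymes of the Ugt1a locus are made by joining alternative first exons to shared later exons. The rat reference table names 7 Ugt1a genes where the count table has 1, so this value stands for the locus, and the data do not say which first exon was used. The remaining 6 Ugt members were silent (5 genes, Ugt2a3, Ugt2b15, Ugt2b35, Ugt3a2 and the galactosyltransferase Ugt8) or had 3 counts in all (Ugt2b10).

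Sult1a1 made up most of the sulfotransferase level with dexamethasone and not in the controls. Sult1a1 (chromosome 1, 198100586 to 198104109), which sulfates phenols, had 33.6, 31.3 and 33.9 CPM with dexamethasone, against 1.01, 0.760 and 1.10 CPM in the controls. It rose 34.3-fold (log2 5.10 ± 0.16 SE, edgeR adjusted p = 2.9e-36), the largest fitted rise among members with counts in both groups. Sult5a1 had 2.08, 2.24 and 1.97 CPM with dexamethasone against 1.06, 0.760 and 0.925 CPM in the controls, and rose by 1.19 on the log2 scale (edgeR adjusted p = 1.5e-05). Sult1c2a had 0.284, 0.255 and 0.542 CPM with dexamethasone against 2.18, 2.08 and 2.35 CPM in the controls, 6.01-fold lower (log2 -2.59 ± 0.30 SE, edgeR adjusted p = 6.7e-11). Sult6b1 did not pass. Sult1e1, the oestrogen sulfotransferase, had no count, and Sult1b1, which missed the filter, had 18 counts with dexamethasone and none without, at least 3.08-fold higher by the floor. Per exon length, Sult1a1 made up 92% ± 0.42 of the summed Sult level of 29.2 ± 1.12 RPKM with dexamethasone, and 29.2% ± 1.22 of the 2.68 ± 0.43 RPKM in the controls (SD, n = 3 each). In the controls Sult1c2a (0.823 ± 0.0512 RPKM), Sult1a1 (0.782 ± 0.144) and Sult5a1 (0.77 ± 0.127) lay within each other's spread.

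Levels can be set against each other only per exon length, in RPKM. The order of the members changed between the groups. With dexamethasone Gsta1 came first (352 ± 9.21 RPKM, SD, n = 3), followed by Gstm7 (203 ± 1.42), Aldh9a1 (126 ± 1.39), Aox1 (106 ± 0.712) and Aldh7a1 (102 ± 2.64). In the controls the order was Cyp1b1 (137 ± 2.19 RPKM), Aldh9a1 (135 ± 3.49), which lay within the spread of Cyp1b1, Gsta1 (81.8 ± 2.86) and Aldh7a1 (74.7 ± 0.272). Cyp1b1 ranked 7 with dexamethasone and 1 in the controls, and Aox1 ranked 4 with dexamethasone and 21 in the controls. Sult1a1 had 26.9 ± 1.14 RPKM with dexamethasone against 0.782 ± 0.144 RPKM in the controls. Summed over a family, Gst levels were 772 ± 8.34 RPKM with dexamethasone and 323 ± 6.32 RPKM in the controls, Aldh levels 357 ± 2.57 RPKM with dexamethasone and 296 ± 2.97 RPKM in the controls, and Aox levels 112 ± 0.68 RPKM with dexamethasone and 6.07 ± 0.308 RPKM in the controls. Gsta1 alone made up 45.6% ± 0.705 of the Gst sum with dexamethasone against 25.3% ± 0.908 in the controls. Ugt, Fmo and Ephx sums stayed at 4.9 RPKM or below in both groups. The Ugt sum rests on Ugt1a6, whose 9345 listed exon bases stand for the locus. If they hold several alternative first exons, its level per length is understated.

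**Figure D4:**
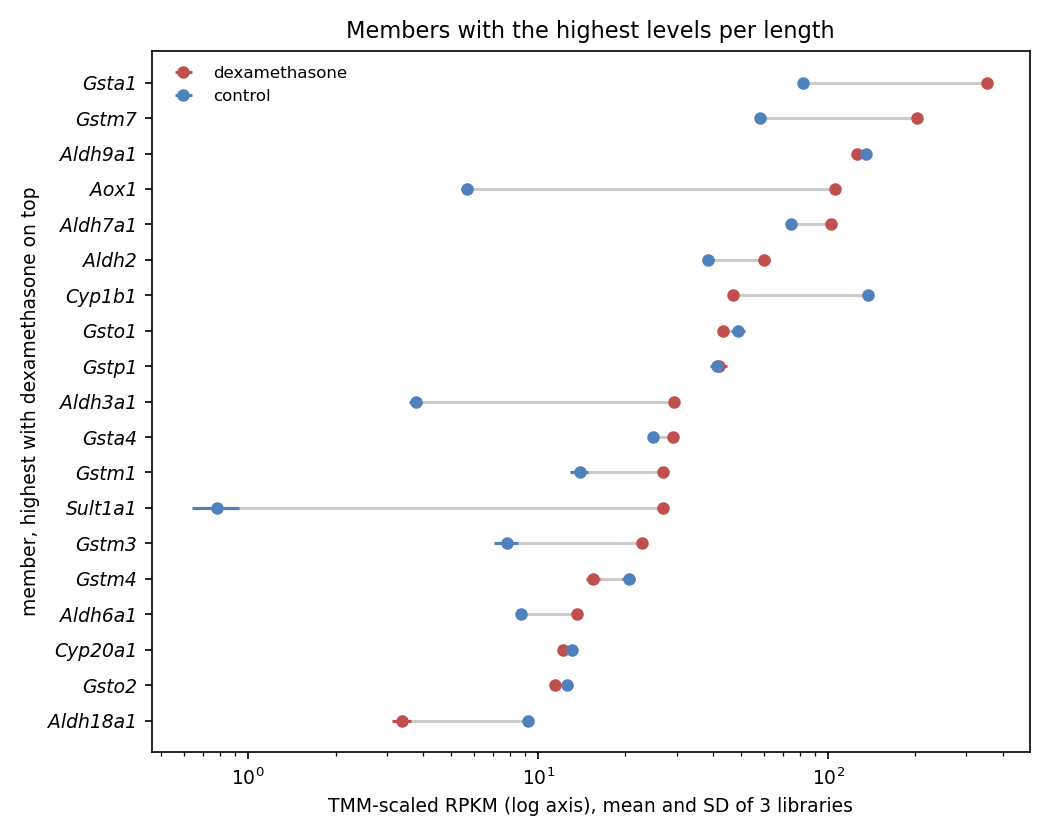
TMM-scaled RPKM (x axis, log scale) of the 19 members that ranked among the top 15 in either group, as mean and SD of the 3 dexamethasone (red) and 3 control (blue) libraries, ordered from the highest with dexamethasone down. Gsta1, Gstm7, Aox1, Aldh3a1 and Sult1a1 have red points far right of blue, Cyp1b1 and Aldh18a1 far left, and Aldh9a1, Gsto1 and Gstp1 lie close together.

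Genes that supply or control these enzymes were taken from lists written from general knowledge, with earlier results of these data known. Their counts stand beside the 32.3% higher and 31.7% lower, 64.0% in all, of all tested genes. Among 10 redox partners of P450s, 4 rose, 4 fell and 2 did not pass (80.0% called, median log2 0.0068). Por, the reductase that feeds electrons to microsomal P450s, averaged 96.9 CPM with dexamethasone against 167 CPM in the controls and fell by 0.78 on the log2 scale, while Cyb5a, Cyb5b and the mitochondrial donor Fdx1 rose by 0.59, 0.57 and 0.90. Of 14 tested receptors and partners, 8 rose, 4 fell and 2 did not pass (85.7% called, median log2 0.18). Ahr, the receptor for dioxin-like compounds, averaged 110 CPM with dexamethasone against 320 CPM in the controls and fell by 1.54. Tiparp, a target gene of that receptor in the same list, rose by 0.89. Nfe2l2, which encodes NRF2, a transcription factor of the oxidant response, fell by 0.57, and Keap1, whose product senses oxidants and restrains NRF2, rose by 0.20. Cebpa, a liver and fat transcription factor, rose by 2.16, at 7.75 CPM with dexamethasone against 1.73 CPM in the controls. Nr1i2, the pregnane X receptor through which dexamethasone induces Cyp3a genes in rat liver, had no count in any library, and Nr1i3, the constitutive androstane receptor, stood at 1.60 CPM with dexamethasone against 1.92 CPM in the controls (edgeR adjusted p = 0.33).

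Cofactor supply moved unevenly. Among its 10 genes, all tested, 5 went up, 1 went down and 4 were not called, so that 60.0% were called against 64.0% of all tested genes (median log2 0.20). The fall was Papss2, which makes the sulfate donor used by sulfotransferases, at 16.3 CPM with dexamethasone against 54.8 CPM in the controls (log2 -1.75 ± 0.060 SE, edgeR adjusted p = 2.6e-29). Papss1, the other such gene, rose by 0.20. Gclc, the rate-limiting step of glutathione synthesis, and Gsr, which regenerates glutathione, rose by 0.72 and 0.56, while Gclm did not pass (log2 0.29, edgeR adjusted p = 0.081). Ugdh, which makes the glucuronic acid donor, did not pass (log2 0.03, edgeR adjusted p = 0.40). Ugp2, listed for the same donor, rose by 0.19 (edgeR adjusted p = 4.2e-04). Of 24 tested other conjugating and reducing enzymes, 11 rose, 4 fell and 9 did not pass (62.5% called, median log2 0.18). Mgst1, a membrane-bound glutathione transferase, averaged 8.07 CPM with dexamethasone against 2.11 CPM in the controls (log2 1.93 ± 0.16 SE), and Akr7a2, an aldehyde reductase, 16.6 CPM with dexamethasone against 46.8 CPM in the controls (log2 -1.50 ± 0.062 SE). Sqor, which oxidises hydrogen sulfide, rose by 0.68 and Nqo1, a quinone reductase, by 0.84. Of 8 tested membrane transporters, 1 rose, 3 fell and 4 did not pass (50.0% called, median log2 -0.12), with Abcc1, an exporter of glutathione conjugates, down by 0.41 and Abcc4 up by 0.27. Slc22a5 and Slco3a1 were lower (log2 -0.48 and -0.96). Of 9 tested retinoid genes, 2 rose, 5 fell and 2 did not pass (77.8% called, median log2 -0.24). Crabp2, which carries retinoic acid to its receptor, averaged 50.1 CPM with dexamethasone against 16.2 CPM in the controls (log2 1.63 ± 0.046 SE), Dhrs9, a retinol dehydrogenase, 42.8 CPM with dexamethasone against 109 CPM in the controls (log2 -1.34 ± 0.054 SE), and the receptor gene Rarg 45.7 CPM with dexamethasone against 69.3 CPM in the controls (log2 -0.60 ± 0.043 SE). Rarres2, which encodes chemerin, rose by 0.73.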

How the data were processed

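RNA was sequenced from 6 BMSC samples, with libraries made by a SMARTER mRNA-seq kit per the labels' protocols. The authors deposited 1 table of read counts per gene, with exon positions and exon length, per the file headers. The sources used here name no aligner, counting program or strand setting, and for the build only mm10, a mouse build, in the submitters' processing notes. The symbols are rat: 142 of 146 members matched a RefSeq rat gene table (GRCr8) by symbol and 2 by synonym.

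Of values from 1 to 20 counts, 70.3% were even, against 50.6% of values of 1000 or more, so 6 counts, or 3 read pairs, served as the floor. Intervals and floors cover counting error only.

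Genes were filtered with filterByExpr, scaled by TMM and tested across the whole table with edgeR 4.0.16 (R 4.3.3), with robust quasi-likelihood fits, no covariate and Benjamini-Hochberg adjustment. The common biological coefficient of variation was 3.66%. SEs come from log2 CPM (prior count 2). The code was tested on simulated data. Alternatives included DESeq2 1.42.0.

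Per family, values in every library were given for the 4 called members with the largest change among those of at least 1 CPM in a group, and for the most abundant member. Those of Cyp24a1, Cyp2r1, Cyp4v3, Cyp26b1, Cyp11b3, Ephx2, Gstm6, Gstp1 and Aox2 were added after they were seen. Members and lists were chosen with earlier results of these data known. Promoter motifs and protein identity were not analysed here.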

Additional observations from a re-analysis of the deposited data

How the results depend on the processing

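Counts of members called stayed within 1.5 times under library size alone, without the filter on low counts, and under DESeq2, except that DESeq2 called 1 Ephx member higher in place of 2. Single calls did change: DESeq2 lost those of Gsto2, Gstt2, Cyp26b1 and Ephx2. Calls were also gained. Without the filter, 9 Cyp members were higher and 8 lower in place of 6 and 7, and 3 Sult members were higher in place of 2. Under DESeq2, 7 Cyp and 3 Sult members were higher. The call of Gsto2 was also lost under library size alone and without the filter (edgeR adjusted p = 0.15 and 0.079). Against a fold change of 1.5, 19 members were higher and 9 lower in place of 31 and 16, with 0 Gst lower, 1 Aldh higher, 2 Aldh lower and 1 Ephx higher, and 2827 of all genes called. With a biological coefficient of variation of 0.2, 26 were higher and 10 lower, with 0 Gst lower, 5 Aldh higher and 2 Aldh lower, and 3693 of all genes called. Leaving out 1 library at a time gave 28 to 33 members higher and 15 to 16 lower, and 1 to 2 Ephx members higher, with 8570 to 8757 of all genes called. The cause of these shifts was not tested, beyond the higher bar that the fold of 1.5 and the larger spread set by construction.

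With the replicate number as a block, 31 members were higher and 15 lower, and 8991 of all genes were called. The correlations of same-numbered libraries' deviations were 0.0026, -0.0078 and 0.020. These values showed no pairing by number, but with 3 libraries per group they cannot exclude a shared animal or culture. The block lost the call of Gsto2 (adjusted p = 0.052) and of no other member.

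Members whose sign turned under any setting were all ones that did not pass, with 1 library left out over these log2 ranges: Cyp2s1 -0.24 to 0.18 (and 0.01 with library size alone), Cyp2c6v1 -0.20 to 0.13, Gstp1 -0.02 to 0.08, Sult6b1 -0.22 to 0.76, Gstz1 -0.01 to 0.15, Cyp46a1 -0.16 to 0.21, Cyp4f5 -0.22 to 0.02 and Cyp27a1 -0.88 to 0.30. Gstt1 passed with library size alone (adjusted p = 0.041), as did Cyp4f6 (adjusted p = 0.049), and Cyp2j10 passed without control replicate 3 (adjusted p = 0.043). Library size alone moved the median of all genes to 0.038 on the log2 scale. Ranked by CPM in place of RPKM, all 8 families had the same leading member. The promoter motif settings were not run, since no promoter sequence was used here. Low counts left 53 members with some counts untested in the main fit.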
